A study of Mus musculus with 12 samples.

Results

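Tex46, Esyt3, Plekho2, Nqo2 and Car2 are 5 protein-coding genes, of 55291 in the deposited count table, that were picked by name because their counts were much lower in Pan2 knockout (KO) than in wildtype (WT) germ cells of the mouse testis. The KO against WT counts therefore chose them, and those differences are given below as a description with no test. RNA was sequenced from sorted cells of 2 stages, spermatocytes at the MII stage and round spermatids (RS), which are haploid and have completed meiosis, although the tissue label of every library reads "sperm". KO mice were Pan2flox/-;Stra8-Cre, in which Stra8 regulatory sequence, switched on in germ cells near the start of meiosis, drives the recombinase Cre, and the controls are labelled wildtype. The sources used here do not give age, strain or whether the controls carried Cre or a floxed allele. Each of the 4 groups, WT MII, KO MII, WT RS and KO RS, had 3 libraries, 12 in all. The labels do not state whether replicates were different animals, and p-values here reflect no more than how these libraries vary, possibly for technical reasons.

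PAN2 is the nuclease of the PAN2-PAN3 complex, which trims long poly(A) tails on cytoplasmic mRNAs early in their decay. Developing male germ cells make many mRNAs before the proteins are needed and store them, and poly(A) tail length is a known part of that storage. Libraries were primed with oligo(dT), so the counts depend on a tail and measure neither its length nor translation. The 5 genes act in unlike places. Car2 encodes a cytosolic carbonic anhydrase, which interconverts CO2 and bicarbonate, and Nqo2 a quinone reductase that uses dihydronicotinamide riboside as electron donor. Esyt3 encodes an extended synaptotagmin, a protein that tethers the endoplasmic reticulum to the plasma membrane. Plekho2 encodes a protein with a pleckstrin homology domain, and Tex46 is a gene named for its expression in testis.

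The genes lie on 4 chromosomes of the mm10 build. Car2 spans chromosome 3 from 14886273 to 14900770 on the plus strand with 8 merged exons, and Tex46, the shortest, chromosome 4 from 136610437 to 136613226 on the plus strand with 2. Esyt3 spans chromosome 9 from 99309963 to 99358557 on the minus strand with 23 merged exons. Plekho2 lies on the same strand of chromosome 9, from 65552698 to 65580040 with 10 merged exons, 33.7 Mb from Esyt3. Nqo2 spans chromosome 13 from 33964687 to 33988443 on the plus strand with 10 merged exons. Merged exon length ran from 683 bases for Tex46 through 2422 for Car2, 4042 for Nqo2 and 5547 for Plekho2 to 7138 for Esyt3.

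Promoters are shown so that the letters near the starts of these genes can be compared, and not as evidence of a shared control. Each covers 250 bases before to 50 after a gene's start, read 5′ to 3′ on the gene's strand, from RefSeq on GRCm38.p6, and 4 of the 5 genes were matched. Capitals mark every match, on either strand, to the 7 motifs searched: the cyclic AMP response element TGACGTCA and its core TGACG, the RFX half-site GTTGCC, the SOX core ACAAT, the GC box GGGCGG, the TATA box TATAAA and the antioxidant response element core TGACNNNGC. The windows are Tex46 at chr4:136610187-136610486 on the plus strand, Esyt3 at chr9:99358481-99358780 and Plekho2 at chr9:65580038-65580337 on the minus strand, and the upstream of 2 Nqo2 starts at chr13:33964409-33964708 on the plus strand.
Tex46: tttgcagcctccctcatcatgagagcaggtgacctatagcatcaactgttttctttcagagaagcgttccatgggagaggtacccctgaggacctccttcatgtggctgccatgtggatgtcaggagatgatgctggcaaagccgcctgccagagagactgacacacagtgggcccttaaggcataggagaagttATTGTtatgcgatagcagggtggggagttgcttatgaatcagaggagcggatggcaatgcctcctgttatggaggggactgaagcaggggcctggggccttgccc
Esyt3: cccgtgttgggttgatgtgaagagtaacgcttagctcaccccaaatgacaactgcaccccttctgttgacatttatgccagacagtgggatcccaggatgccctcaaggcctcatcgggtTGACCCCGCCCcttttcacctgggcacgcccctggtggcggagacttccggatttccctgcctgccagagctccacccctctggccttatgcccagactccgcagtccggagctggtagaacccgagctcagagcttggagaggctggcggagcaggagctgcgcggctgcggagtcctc
Plekho2: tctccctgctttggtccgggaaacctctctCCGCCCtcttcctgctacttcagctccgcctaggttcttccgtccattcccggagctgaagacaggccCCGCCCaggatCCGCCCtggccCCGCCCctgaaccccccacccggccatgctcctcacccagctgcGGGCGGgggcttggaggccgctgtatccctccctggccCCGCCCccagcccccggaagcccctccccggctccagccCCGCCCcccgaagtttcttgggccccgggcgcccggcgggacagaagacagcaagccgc
Nqo2: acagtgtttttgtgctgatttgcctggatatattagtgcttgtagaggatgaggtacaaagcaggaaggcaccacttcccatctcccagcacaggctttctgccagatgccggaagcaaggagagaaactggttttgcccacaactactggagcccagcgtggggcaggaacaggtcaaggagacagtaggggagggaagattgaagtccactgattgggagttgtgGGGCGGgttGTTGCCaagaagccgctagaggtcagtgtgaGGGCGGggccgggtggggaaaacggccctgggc
No motif was in all 4 promoters. GC boxes occurred 7 times in Plekho2, 2 times in Nqo2 and 1 time in Esyt3 and were absent from the Tex46 window, while 35.7% of all 32851 promoters of this length held at least 1. In Esyt3 the GC box overlapped the antioxidant core, which 12.4% of promoters held. The RFX half-site was in Nqo2 and in 12.5% of promoters, and the SOX core was in Tex46 and in 31.0%. The other Nqo2 start, with its window at chr13:33966903-33967202, gave another picture, with 2 SOX cores, no GC box and no RFX half-site. The windows held no TGACGTCA (1.79% of promoters), no TGACG (20.8%) and no TATAAA (13.6%), which says only that these letters are not in them. GC content was 54.3% in Tex46, 56.0% in Nqo2, 61.7% in Esyt3 and 72.0% in Plekho2, against a median of 52.7% over all promoters.

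Pan2, on chromosome 10 from 128303335 to 128321358, was read first as a check of the labels. In MII its CPM (the count scaled to a common, TMM-adjusted library size) was 12.9, 17.1 and 13.3 for WT against 5.57, 7.10 and 5.08 for KO, so these groups did not overlap. In MII 10.4% of tested genes had every KO library below every WT library. The KO minus WT log2 difference of Pan2 was -1.28 in MII and 0 in RS. Neither passed edgeR's quasi-likelihood test (adjusted p = 0.227 and 0.998). In RS the WT values were 9.93, 8.13 and 13.0 CPM and the values of the KO-labelled libraries 22.6, 4.73 and 3.52 CPM. The library labelled KO RS replicate 1 thus went against its label, and the RS differences of the 5 genes, their relatives, the named list genes and the called neighbours are also given without it. The floxed exons are not named in the labels, so a count over the whole gene checks the deletion only in part. Total counts ran from 13781370 to 38652066 per library, and 21291 genes were tested. Of all values between 1 and 20, 81.4% were even.

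Tex46 held 193, 156 and 639 counts in the WT MII libraries and 70, 40 and 34 in the KO MII libraries. On the CPM scale these levels were 13.5, 6.94 and 19.3 in WT MII against 2.85, 1.05 and 1.48 in KO MII. Every KO MII library was below every WT MII library, though WT itself spread widely (13.2 ± 6.16 CPM, mean ± SD, n = 3). RS levels were 10.8, 16.5 and 7.78 CPM for WT against 1.13, 1.15 and 1.36 CPM for the KO-labelled libraries. The 3 KO RS values lay close together (1.21 ± 0.127 CPM) and far below WT RS (11.7 ± 4.41 CPM). The KO minus WT difference was -2.91 on the log2 scale (SE 0.384) in MII and -3.27 (SE 0.396) in RS, and the RS value was -3.22 without the library labelled KO RS replicate 1. Tex46 counts in KO were thus 7.53-fold lower in MII and 9.67-fold lower in RS. In bulk libraries such as these, fewer cells that hold a transcript and less of it per cell cannot be told apart.

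Esyt3, the membrane tether, was nearly constant among WT MII libraries, at 10.2, 9.84 and 10.7 CPM. KO MII libraries had 4.11, 2.07 and 1.91 CPM, and KO MII replicate 1 was the highest of them. In RS the WT levels were 15.1, 18.8 and 9.84 CPM, against 2.41, 1.33 and 0.805 CPM for KO. No KO library reached a WT library at either stage, and the lowest KO RS value rested on 19 counts. The log2 difference was -1.93 (SE 0.335) in MII, which left 26.2% of the WT level, and -3.24 (SE 0.352) in RS, which left 10.6%. Without the library labelled KO RS replicate 1, the highest of its group here, the RS value was -3.76.

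Plekho2, the pleckstrin homology protein, had the lowest WT counts of the 5 genes in MII, with 51, 148 and 227. MII levels were 3.56, 6.59 and 6.84 CPM for WT against 2.11, 1.02 and 1.74 CPM for KO. The groups did not overlap, but WT MII replicate 1 stood nearer to the KO libraries than to the other WT libraries. RS levels were 9.53, 15.6 and 11.0 CPM for WT against 1.45, 1.65 and 1.10 CPM for KO. There the gap between the groups was wider than the spread within either. The log2 difference was -1.84 (SE 0.312) in MII and -3.09 (SE 0.317) in RS, or 3.58-fold and 8.53-fold lower. Its RS value was -3.12 without the library labelled KO RS replicate 1.

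Nqo2, the quinone reductase, had MII levels of 12.2, 8.59 and 14.0 CPM for WT against 3.50, 3.54 and 4.73 CPM for KO. Its RS levels were 15.1, 15.7 and 11.1 CPM for WT against 1.96, 1.93 and 1.27 CPM for KO. All 6 KO values were below all 6 WT values, and every KO RS library was also below every KO MII library. The log2 difference was -1.57 (SE 0.241) in MII and -3.01 (SE 0.257) in RS, or -3.11 in RS without the library labelled KO RS replicate 1. Levels in KO were 33.6% of WT in MII and 12.4% in RS. Nqo2 shares 762 exon bases with Serpinb6a on the opposite strand, and whether the counting used strand is not stated. Serpinb6a, a protease inhibitor gene, stood at 288 ± 41.2 CPM (WT) and 257 ± 31.2 CPM (KO) among MII libraries and at 241 ± 18.3 CPM (WT) and 219 ± 5.18 CPM (KO) among RS libraries. It did not pass the test (adjusted p = 0.552 and 0.544, and 0.709 in RS without that library).

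Car2, the carbonic anhydrase, was the most abundant of the 5 in CPM, at 23.9, 23.9 and 41.3 in WT MII and 37.9, 53.7 and 37.9 in WT RS. Its KO levels were 10.9, 6.40 and 9.28 CPM at MII and 8.55, 8.67 and 4.49 CPM at RS. WT and KO did not overlap at either stage, and KO libraries still held 106 to 268 counts, the highest of the 5 genes in each KO library. The log2 difference was -1.76 (SE 0.27) in MII and -2.57 (SE 0.277) in RS. Its RS value was -2.71 without the library labelled KO RS replicate 1.

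**Figure D1:**
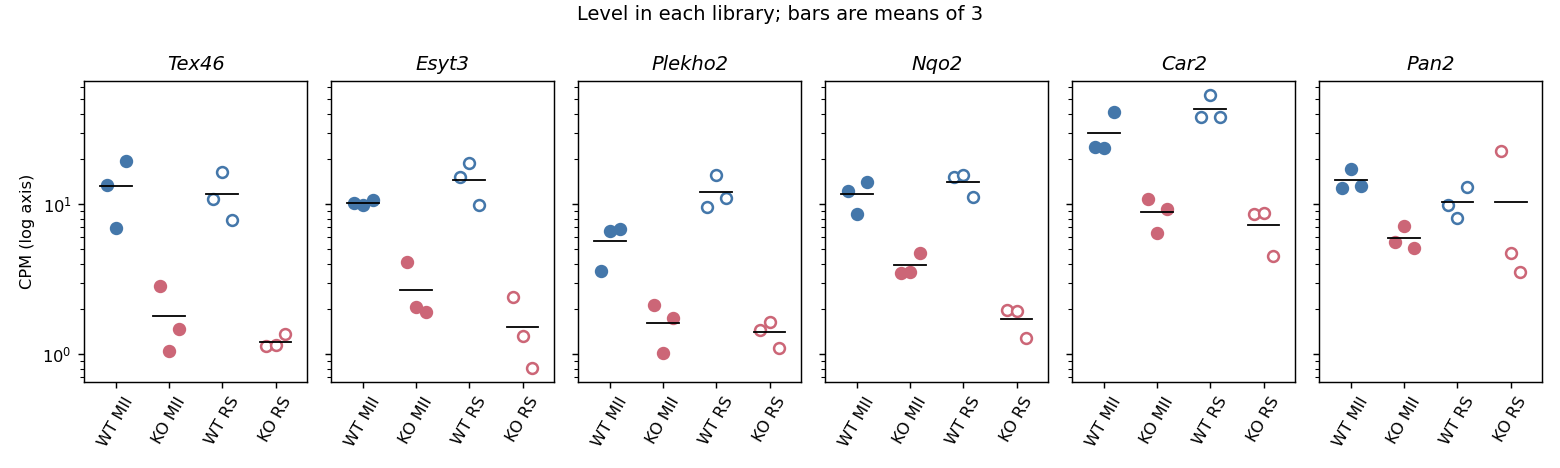
Level of each of the 5 genes and of Pan2 in every library, in CPM on a log axis. Dots are libraries (filled for MII, open for RS, blue for WT, red for KO) and bars are means of 3. All 6 KO libraries lie below all 6 WT libraries for each of the 5 genes, with Car2 highest, at 43.1 CPM on average in WT RS. For Pan2 the library labelled KO RS replicate 1 is highest, at 22.6 CPM.

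All 5 genes were called lower at both stages in the fit across genes, as were 1.86% of tested genes in MII, 7.39% in RS and 1.3% at both. Calls in either direction made up 3.68% of tested genes in MII and 13.4% in RS. All 5 also had every KO library below every WT library, as 10.4% of tested genes did in MII, 18.3% in RS and 2.45% over the 12 libraries together. Since these contrasts chose the genes, nothing is read from the counts. At or below the smallest difference of the 5 at each stage, -1.57 in MII and -2.57 in RS, were 135 tested genes. Of those, 12 averaged 5 CPM or more, and 11 of the 12 were called lower at both stages, the 5 genes and 6 others. The others were Prm1, which encodes a protamine that packs sperm DNA (-1.81 and -2.68, mean 914.6 CPM), 3110070M22Rik (-7.59 and -7.65), Hmgb1-rs17 (-2.65 and -3.04), Gm11634 (-1.95 and -2.60), Tmem151a (-2.02 and -2.67) and 1700025G04Rik (-2.22 and -2.65).

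The share of the WT mean left in a KO library was higher in every MII library than in any RS library for Nqo2, Plekho2, Esyt3 and Car2, but not for Tex46, at 21.5%, 7.93% and 11.1% in MII and 9.64%, 9.82% and 11.6% in RS. Over the 5 genes the median share was 36.7% in KO MII replicate 1, 20.2% in replicate 2 and 30.6% in replicate 3. The libraries labelled KO RS had medians of 14.1%, 13.7% and 9.16%. The library labelled KO RS replicate 1, with the highest Pan2 level of all, kept between 9.64% and 19.8% of the WT level of these genes, and replicate 2 between 9.08% and 20.1%. The genes were chosen with this library among the KO libraries, so its low levels here do not bear on its label.

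The KO minus WT difference was lower in RS than in MII for each of the 5. The extra log2 difference in RS was -1.43 (SE 0.344) for Nqo2, -1.31 (SE 0.473) for Esyt3, -1.25 (SE 0.436) for Plekho2, -0.81 (SE 0.375) for Car2 and -0.36 (SE 0.534) for Tex46. In the same order they were -1.54, -1.83, -1.28, -0.95 and -0.31 without the library labelled KO RS replicate 1. These values come from the contrasts that chose the genes and carry no test. Across all tested genes, 0.0047% were called for such a difference, which is 1 gene. The Tex46 value was smaller than its SE and ranged from -0.75 to 0.15 as single libraries were left out.

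**Figure D2:**
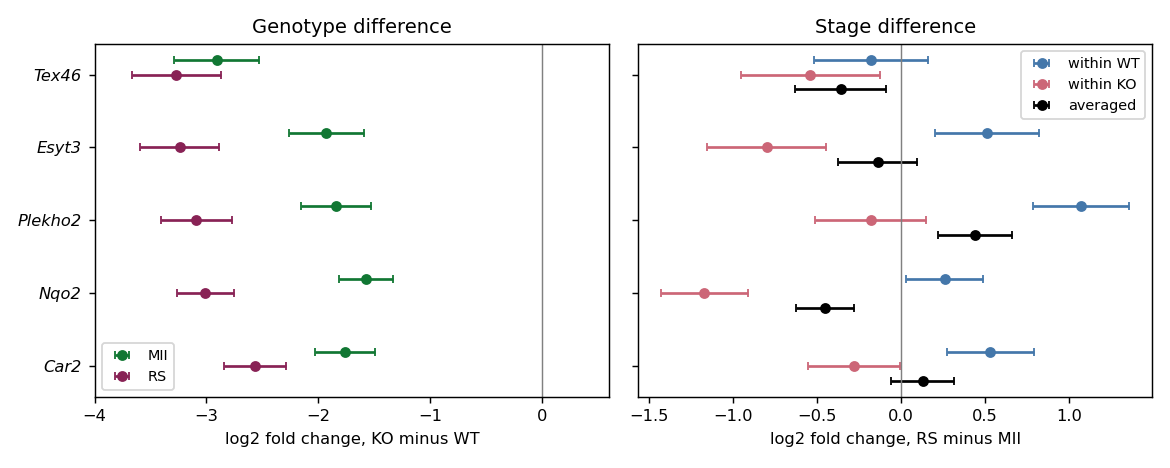
Left, KO minus WT log2 difference of each gene in MII and RS. Right, RS minus MII log2 difference within WT, within KO and averaged over genotypes. Bars are SE from the fit. On the left all values lie below 0, from -1.57 to -3.27. On the right the averaged values lie between -0.45 and 0.44.

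Levels can be set side by side between genes once divided by exon length. In CPM per kb, WT MII libraries averaged 19.4 ± 9.02 for Tex46, 12.3 ± 4.15 for Car2, 2.87 ± 0.684 for Nqo2, 1.44 ± 0.0608 for Esyt3 and 1.02 ± 0.329 for Plekho2 (mean ± SD, n = 3). Tex46 and Car2 overlapped in range, as they did in the other 3 groups, so their order is within the spread. In WT RS the means were 17.8 CPM per kb for Car2, 17.1 for Tex46, 3.45 for Nqo2, 2.17 for Plekho2 and 2.04 for Esyt3, and the last 3 formed an overlapping run. The same grouping held in KO, with Car2 at 3.66 and 2.99 CPM per kb in MII and RS, Tex46 at 2.62 and 1.77, and Nqo2 at 0.970 and 0.426. Esyt3 and Plekho2 were lowest, at 0.378 and 0.293 CPM per kb in KO MII and 0.212 and 0.252 in KO RS, and overlapped in both.

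The difference between stages averaged over genotypes was not used to choose the genes and could be tested. None of the 5 passed edgeR's quasi-likelihood test, in which 28.4% of tested genes were called. Nqo2 came nearest, lower in RS by -0.45 on the log2 scale (SE 0.172, adjusted p = 0.0548), and was the 1 gene of the 5 under 0.05 before adjustment. DESeq2 called Nqo2 (adjusted p = 0.0456) and limma-voom called none. Plekho2 stood at 0.44 (SE 0.218, adjusted p = 0.14), Tex46 at -0.36 (SE 0.268, adjusted p = 0.338), Esyt3 at -0.14 (SE 0.235, adjusted p = 0.693) and Car2 at 0.13 (SE 0.187, adjusted p = 0.653). An exact two-sided permutation test of stage within genotype, with 400 rearrangements and a smallest possible p of 0.005, gave p between 0.15 and 0.635, and 0.4 to 0.635 after adjustment over the 5. Without the library labelled KO RS replicate 1 the adjusted p was 0.0609 for Nqo2 and 0.207 to 0.865 for the others. The averages combine unlike courses. Within WT the RS minus MII value was 1.07 (SE 0.286) for Plekho2, 0.53 (SE 0.258) for Car2, 0.51 (SE 0.31) for Esyt3, 0.26 (SE 0.229) for Nqo2 and -0.18 (SE 0.34) for Tex46. Within KO all 5 were below 0, from -0.18 (SE 0.33) for Plekho2 to -1.17 (SE 0.257) for Nqo2. These within-genotype values share the libraries that chose the genes and were not tested.

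Relatives of the 5 genes did not pass edgeR's test at either stage with all libraries (adjusted p given in the order MII, RS). Esyt1 and Esyt2, which encode the other extended synaptotagmins, differed by -0.36 and -0.59 (0.633, 0.328) and by -0.17 and -0.39 (0.679, 0.181). Esyt2 was well measured, at 28.6 ± 1.34 CPM for WT and 25.5 ± 2.64 CPM for KO in MII. Plekho1 differed by -0.32 and -0.73 (0.592, 0.0966), at 6.50 ± 0.43 CPM for WT and 3.94 ± 0.817 CPM for KO in RS. It passed in RS when only the 6 RS libraries were fitted (-0.72, adjusted p = 0.0344). Nqo1, the quinone reductase that uses NADH or NADPH, was low, at 1.27 ± 1.00 CPM in WT MII, and differed by -0.26 and -0.30 (0.853, 0.794). Car4, a carbonic anhydrase anchored to the outer membrane face, was at 0.841 ± 0.26 CPM in WT MII and differed by -0.46 and -0.30 (0.719, 0.77). Car13, like Car2 a cytosolic carbonic anhydrase and 223.3 kb from it, differed by 0.90 and -0.09 (0.204, 0.903). The RS values without the library labelled KO RS replicate 1 were -0.60 for Esyt1, -0.30 for Esyt2, -0.66 for Plekho1, -0.47 for Nqo1, 0.00 for Car4 and -0.25 for Car13, with adjusted p of 0.262 or more.

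Genes with related roles, without the 5 themselves, were read in 6 lists. Of 6 other carbonic anhydrases tested none was called at either stage by edgeR or the other tools, with medians of 0.52 in MII and -0.11 in RS beside -0.01 for all genes, although 4 in MII and 1 in RS had an unadjusted p under 0.05. None of 14 bicarbonate carriers and pH regulators was called at either stage by any of the tools (2 and 1 at an unadjusted p under 0.05, medians 0.19 and -0.03). Of 14 genes around PLEKHO proteins, AKT and casein kinase II, edgeR called none (1 and 4 unadjusted, medians 0.07 and 0.05), while DESeq2 called 1 higher in MII and 1 lower in RS. Of 23 genes of membrane contacts between the endoplasmic reticulum and plasma membrane, edgeR called none in MII (4 unadjusted, with 1 lower by DESeq2 and by limma-voom) and 3 lower in RS, with medians of -0.15 and -0.17. Of 28 quinone and antioxidant genes, 1 rose in MII and 5 rose and 1 fell in RS, with medians of 0.11 and -0.07. Of 33 other Tex-named genes, 1 rose in MII and 4 rose and 4 fell in RS, with medians of 0.02 and 0.27. In RS, 13.0% of the contact genes fell, 17.9% of the antioxidant genes rose, and 12.1% of the Tex-named genes rose and as many fell. In the same test 1.83% of all genes rose in MII, and 6.06% rose and 7.39% fell in RS. The RS list shares just given were higher, but each rests on 3 to 5 genes, so no excess is read from them. Without the library labelled KO RS replicate 1, the RS calls were 1 lower contact gene, 1 lower antioxidant gene, and 1 higher and 2 lower Tex-named genes. Over all tested genes that fit called 366 higher and 714 lower in RS, against 1290 and 1573 with all libraries. Such a loss was not confined to that library. In either direction the RS calls were 1080 without it, 1139 without WT RS replicate 3, 1347 without KO RS replicate 2 and 1483 without WT RS replicate 1. They were 2341 without KO RS replicate 3 and 3518 without WT RS replicate 2.

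Gramd2, a gene of the membrane contact list whose product has a GRAM domain, came closest to the 5 in size. It fell in RS from 3.27 ± 0.431 to 0.335 ± 0.211 CPM, a log2 difference of -3.24 (SE 0.539, adjusted p = 0.001), and stood at -1.74 in MII (adjusted p = 0.0633). The MII value passed without a filter (0.00612), with DESeq2 (0.0235), limma-voom (0.0471), the replicate block (0.0497) and counts halved (0.0418), and on leaving out WT MII replicate 2 (0.0287) or else KO MII replicate 1 (0.0143). Keap1, which encodes the adaptor that holds the antioxidant factor NRF2 in check, fell in RS from 30.8 ± 0.976 to 16.6 ± 1.15 CPM (-0.89, SE 0.158, adjusted p = 0.00168). Tex44 and Tex37 each fell by 0.97 on the log2 scale in RS (adjusted p = 0.00449 and 0.0103), and Tex13a rose by 0.78 (adjusted p = 0.00663). These RS calls held when any 1 library was left out. Leaving out the library labelled KO RS replicate 1 gave -3.91 for Gramd2, -0.84 for Keap1, -1.04 for Tex37, 0.73 for Tex13a and, for Tex44, an adjusted p of 0.0209 (the other 4 between 0.00134 and 0.0414). The calls of Vapa (-0.51) and C2cd2l (-0.94), both contact genes, did not hold. They were lost without WT RS replicate 3 (adjusted p = 0.0993 and 0.11), the library labelled KO RS replicate 1 (0.0904 and 0.0912) or KO RS replicate 2 (0.0713 and 0.074), and C2cd2l also without WT RS replicate 1 (0.0575). The other calls of these lists were each lost without 1 or more libraries, so they are given as counts with an example. Of the 5 rises among antioxidant genes in RS, Cyb5r1 (2.42), Txn1 (1.98) and Sod1 (0.52) were lost without WT RS replicate 1 (adjusted p = 0.0608, 0.0878 and 0.103), WT RS replicate 3 (0.0584, 0.108 and 0.152) or the library labelled KO RS replicate 1 (0.119, 0.219 and 0.104), and Sod1 also without KO RS replicate 2 (0.116). Txn1 did not pass with limma-voom (0.158) or in a fit to the 6 RS libraries (0.0617). The others were Prdx3 and Prdx4, peroxiredoxin genes named after their values were seen, whose highest adjusted p over the 12 omissions was 0.369 and 0.232. The MII rises were Prdx3 and Tex21, also named after their values were seen, lost without 3 and 9 of the 12 libraries (highest adjusted p 0.118 and 0.192, without KO MII replicate 1 and replicate 2).

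**Figure D3:**
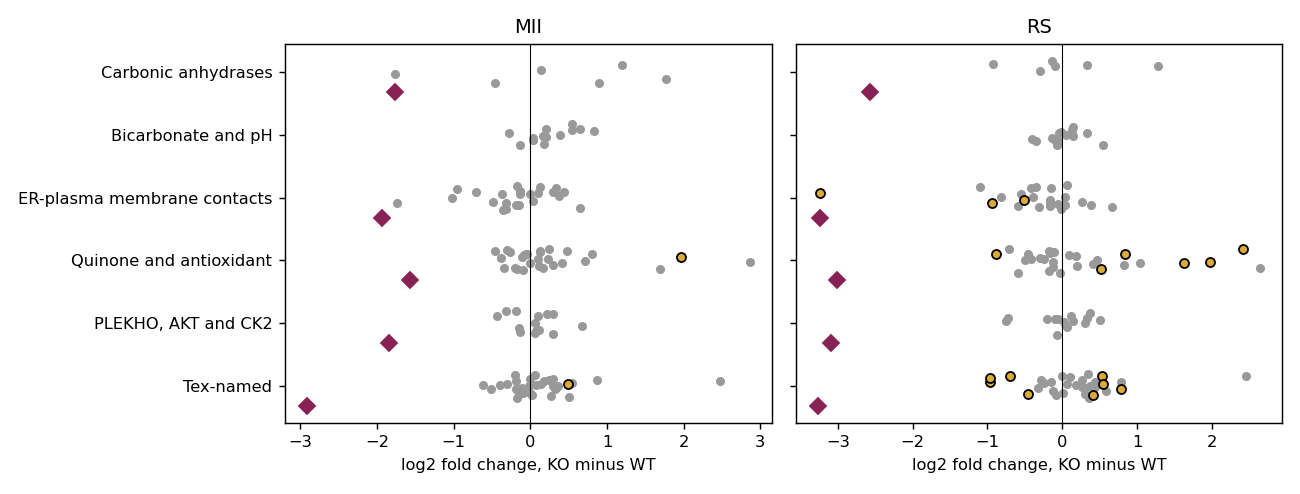
KO minus WT log2 difference of each tested gene of the 6 lists, in MII and RS. Diamonds are the 5 genes, gold dots other genes called at an adjusted p under 0.05 and grey dots the rest. The diamonds lie between -1.57 and -3.27, and Gramd2, at -3.24 in RS, is the called gene among the others at that depth.

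Genes within 500 kb of the 5 were read to see whether the low counts extend along the chromosome. Of 150 genes in these windows 62 were tested, of which 2 rose and 4 fell in MII and 5 rose and 6 fell in RS. These are 3.23% and 6.45% of the tested neighbours in MII and 8.06% and 9.68% in RS, beside 1.83% and 1.86% of all tested genes in MII and 6.06% and 7.39% in RS. Without the library labelled KO RS replicate 1, 1 neighbour rose and 5 fell in RS. That fit called 366 higher and 714 lower over all tested genes, against 1290 and 1573 with all libraries. The RS shares of all tested genes just given therefore do not apply to it. Medians in MII and RS were -0.13 and -0.21 over 15 tested neighbours of Tex46, -0.14 and -0.20 over 12 of Esyt3, -0.14 and -0.17 over 19 of Plekho2, -0.16 and -0.14 over 9 of Nqo2, and 0.59 and 0.00 over 7 of Car2. No neighbour of Car2 was called at either stage.

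Esyt3 had the most called neighbours. 1700008A23Rik, a transcript of unsettled type, lies inside the Esyt3 span on the opposite strand and shares no exon base with it. MII levels were 2.79, 3.12 and 6.27 CPM for WT against 0.976, 0.341 and 0.260 CPM for KO, and RS levels were 5.21, 4.65 and 4.19 CPM against 0.289, 0.860 and 0.339 CPM. All KO libraries were below all WT libraries, and it fell by 2.99 in MII (SE 0.47, adjusted p = 0.00185) and by 3.23 in RS (SE 0.47, adjusted p = 0.000287), a call kept without any 1 library (-2.93 in RS without the library labelled KO RS replicate 1). Without a known strand setting, reads of this transcript and of Esyt3 introns cannot be told apart. Gm37249, which shares 489 exon bases with Esyt3, held 43 counts in all and was not tested. The noncoding Gm47757, 489.7 kb away, fell by 1.72 in MII (adjusted p = 0.00125) and 2.35 in RS (adjusted p = 1.3e-05), or by 2.26 without the library labelled KO RS replicate 1. Faiml, 72.7 kb away, differed by -1.27 in MII (adjusted p = 0.0162) and -1.19 in RS (adjusted p = 0.00814), and its MII call was lost on leaving out WT MII replicate 3 (0.0906) or KO MII replicate 2 (0.0925). Its RS value was -1.23 without the library labelled KO RS replicate 1 (adjusted p = 0.0302). Armc8 (-0.66), Mras (0.63) and 4930422M22Rik (0.62), 119.8, 26.9 and 5.3 kb away, passed in RS with all libraries (adjusted p = 0.0237, 0.0291 and 0.0204). Each call was lost without WT RS replicate 1 (0.0612, 0.155 and 0.0926), WT RS replicate 3 (0.136, 0.14 and 0.127), the library labelled KO RS replicate 1 (0.097, 0.129 and 0.0946) or KO RS replicate 2 (0.0643, 0.122 and 0.0919), and that of Armc8 also without KO RS replicate 3 (0.0571). Between Esyt3 and Faiml lies Cep70, a centrosome gene, at -0.15 and -0.19 (adjusted p = 0.656 and 0.466).

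Near Tex46, the histone demethylase gene Kdm1a, 7.7 kb away, fell in RS from 123 ± 16.6 to 71.7 ± 2.55 CPM (-0.77, SE 0.133, adjusted p = 0.00137) and stood at -0.42 in MII (adjusted p = 0.0822). The MII value passed with the filter of 5 CPM in 3 libraries (0.0456) and with DESeq2 (0.0242). On the other side Lactbl1, 9.4 kb away, was at -0.14 and 0.35 (adjusted p = 0.873 and 0.558). Asap3, which encodes a GTPase-activating protein for ARF, lies 365.2 kb from Tex46. It fell in MII from 1.65 ± 0.725 to 0.164 ± 0.214 CPM (-3.45, adjusted p = 0.0104) and in RS from 2.37 ± 0.515 to 0.297 ± 0.0904 CPM (-3.00, adjusted p = 0.00469). Leaving out the library labelled KO RS replicate 1 gave RS values of -0.76 for Kdm1a (adjusted p = 0.0106) and -2.75 for Asap3 (adjusted p = 0.0277). The complement genes C1qa and C1qc, which macrophages express, lie 282.7 and 276.6 kb away and were barely counted. C1qa had 0 counts in each WT MII library and 40, 10 and 6 in KO MII, and C1qc had 0 counts in each WT RS library against 24, 20 and 0 for KO. The nearest tested genes of Plekho2 (Spg21 and Rbpms2) and Nqo2 (1110046J04Rik and Ripk1) did not pass edgeR's test at either stage, and their values lay between -0.70 and 0.63. Spg21 passed in MII with DESeq2 (0.57, adjusted p = 0.0118). Rasl12, 137.8 kb from Plekho2, held 86 counts in all, with 0 in each WT RS library. Gm6093, a noncoding gene 395.4 kb from Nqo2, rose by 0.88 in MII (adjusted p = 0.00699) and 1.02 in RS (adjusted p = 0.000702), or 0.97 in RS without the library labelled KO RS replicate 1 (adjusted p = 0.00683).

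**Figure D4:**
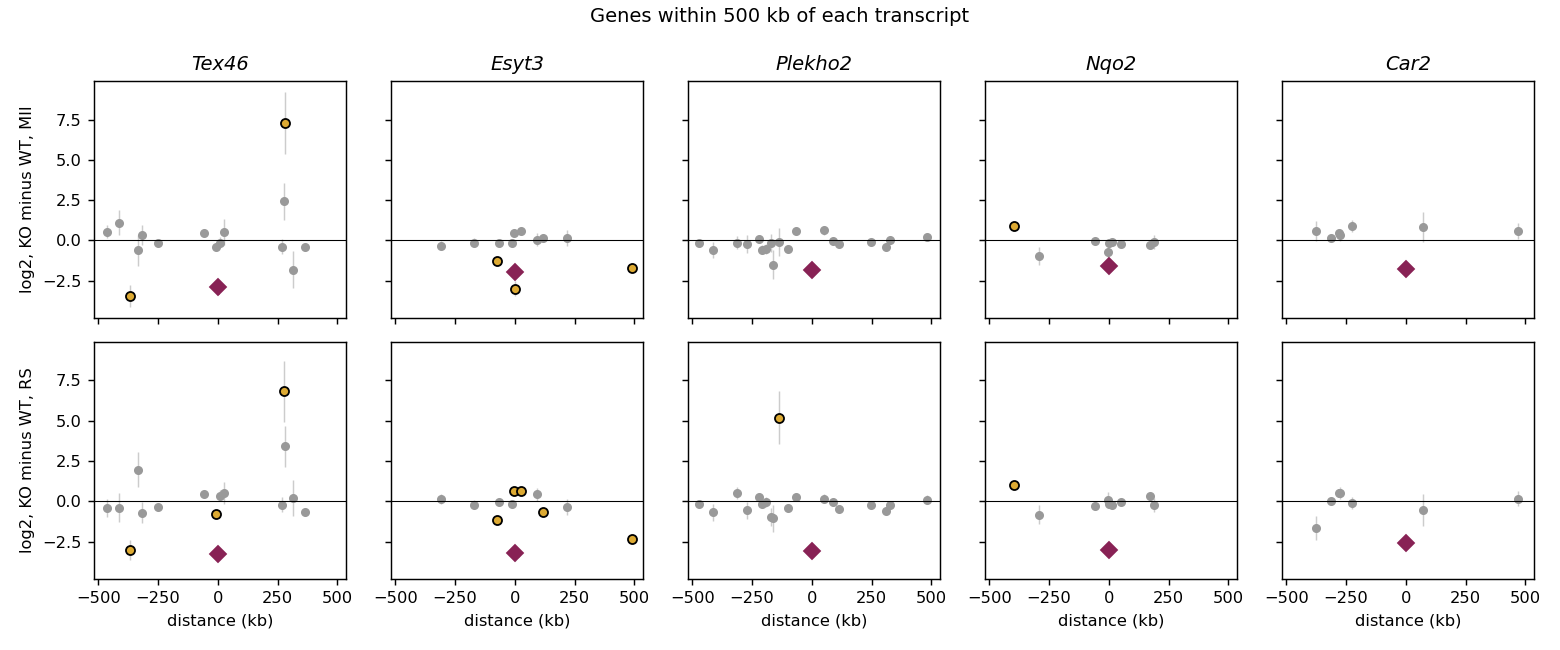
KO minus WT log2 difference of tested genes within 500 kb of each of the 5 genes against distance in kb, with SE bars. Diamonds are the 5 genes, gold dots neighbours called at an adjusted p under 0.05 and grey dots the rest. Most neighbours lie near 0. 1700008A23Rik, at -2.99 in MII and -3.23 in RS, lies below Esyt3 in MII (-1.93) and beside it in RS (-3.24).

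The genes whose levels ran most like each of the 5 were found by Pearson's r of log2 CPM over the 12 libraries. The search covered 9431 genes that averaged 5 CPM or more, and left out predicted genes (Gm plus a number) and pseudogene symbols (-ps). The r values describe libraries that differ by the genotype contrast that chose the 5, and carry no test. Closest to Car2 was Tnp2, which encodes a transition protein that replaces histones in spermatids (r = 0.992), with mean CPM of 1030, 328, 1290 and 275 for WT MII, KO MII, WT RS and KO RS. Closest to Tex46 was the antisense transcript 1700125H03Rik (r = 0.991), at 13.1, 3.84, 13.4 and 2.69 CPM in the same order. Closest to Plekho2 was Dlgap4 (r = 0.988), with KO minus WT values of -1.27 in MII and -1.87 in RS. Closest to Esyt3 was Sec23a, which encodes a COPII coat protein of vesicles leaving the endoplasmic reticulum (r = 0.986, -1.07 and -2.09). Closest to Nqo2 was Knstrn, a spindle protein gene, with a lower r of 0.968 and smaller differences of -0.44 and -0.87. Prm2, which encodes a protamine, was among the 3 closest of both Plekho2 (r = 0.983) and Car2 (r = 0.986), at 919, 357, 1460 and 286 CPM.

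Markers of other cells were read beside these values, and not every list moved with genotype. The summed level of 22 Sertoli markers ranged over 62.4 to 81.6 CPM for WT MII, 149 to 511 for KO MII, 51.6 to 57.9 for WT RS and 100 to 385 for KO RS, with Amh at 0 in every library. Of 21 tested, 3 (14.3%) rose in MII and 11 (52.4%) in RS, beside 1.83% and 6.06% of all tested genes. The 15 Leydig markers summed to 176 to 191, 265 to 414, 106 to 125 and 121 to 133 CPM in the same order. In RS the sum was mostly Fdx1 and Scarb1 (65.5 and 47.7 CPM in WT). Of 14 tested Leydig markers, 4 (28.6%) rose in MII and 6 (42.9%) in RS. Among these were Insl3 (mean 0 CPM in WT RS and 1.26 in KO RS) and Akr1cl (0.0249 and 1.33 CPM). The 14 macrophage and leukocyte markers summed to 430 to 562, 528 to 669, 410 to 691 and 612 to 728 CPM. Nearly all of this was Aif1, with means of 495 CPM in WT MII and 527 in WT RS, so the sum follows that 1 transcript. Of 12 tested, 1 (8.33%) rose in MII and 2 (16.7%) in RS, and Tyrobp was at 0 in both WT groups. The 18 peritubular, endothelial and stromal markers summed to 205 to 307, 183 to 269, 153 to 298 and 192 to 237 CPM in the same order. Of 16 tested, 2 (12.5%) fell in MII and 1 (6.25%) rose in RS. The 9 erythroid markers summed to 3.83 CPM or less in every library. The 14 spermatogonia markers summed to 702 to 919, 572 to 786, 1030 to 1230 and 740 to 810 CPM. Most of this was Dmrtb1, with means of 1070 CPM in WT RS and 725 in KO RS. Of 12 tested, 1 rose in MII, and 2 rose and 2 fell in RS. Markers of spermatocytes and spermatids were far higher, and spermatid transcripts were abundant in the MII fraction too. The 16 round spermatid markers summed to 5180 to 6590, 6590 to 7340, 5690 to 7560 and 8220 to 9410 CPM. Of these 16, 1 rose in MII and 8 rose in RS, where 6.06% of all tested genes rose. The 20 markers of meiotic spermatocytes summed to 3770 to 4580, 3150 to 3920, 2760 to 3620 and 2370 to 2680 CPM. Of these, 8 fell in RS, where 7.39% of all tested genes fell. The 20 markers of elongating spermatids summed to 17000 to 19100, 16000 to 18200, 18700 to 22400 and 17200 to 18300 CPM. That sum was led by Ldhc, at 8000 CPM in WT MII, 8560 in KO MII, 7790 in WT RS and 8850 in KO RS, and hides members that fell. Ldhc was as abundant in MII as in RS, so the sum does not single out elongating spermatids. Of the 20, 5 (25.0%) fell in MII and 6 (30.0%) fell in RS, beside 1.86% and 7.39% of all tested genes, and 1 rose in RS. In RS, WT against KO, Prm1 was at 1650 against 258 CPM, Prm2 at 1460 against 286 CPM and Tnp2 at 1290 against 275 CPM. The part of these cell types in the levels of the 5 genes was not tested.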

How the data were processed

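Smart-seq2 libraries of sorted cells were sequenced as paired reads, per the labels' protocols. The authors deposited whole-number counts per gene for the 12 libraries. Trim Galore 0.6.7, STAR 2.7.10a, featureCounts 2.0.2, DESeq2 and the build mm10 are named in the submitters' processing notes, which do not state their order, settings, strand option or annotation. Because 81.4% of values from 1 to 20 were even, both reads of a pair appear to have been counted, so small counts are fewer fragments than they look. Overlapping genes are therefore uncertain too.

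Of 37839 genes with a count, 21291 were kept by filterByExpr of edgeR (count minimum 10, total minimum 15). edgeR 4.0.16 (R 4.3.3) was fitted to all 12 libraries with 4 group means, TMM scaling and robust quasi-likelihood F tests (8 residual degrees of freedom). The Benjamini-Hochberg adjustment ran over all tested genes, and calls were made below 0.05. The SE is the log2 difference divided by the square root of F. CPM uses TMM-scaled totals, and log2 CPM a prior count of 2. The biological coefficient of variation was 22.28%. Libraries of a group correlated between 0.965 and 0.983 and differed by more than counting noise (chi-square over degrees of freedom 9.28 to 92.5). The fit was also run on simulated counts drawn from the count model it assumes, with the spread estimated from these data. The outcome is not given here. Such counts cannot show how the fit handles a library at odds with its label or reads of a pair counted separately.

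The 5 genes, the gene lists and the tests were chosen with earlier results of these data known. Named genes were the 5, Pan2, their relatives, up to 4 called genes per list, or the 2 with the smallest adjusted p, nearest and overlapping tested neighbours, called neighbours within 500 kb, and the 3 genes most alike. The text gives a part of these. Cep70, the 6 genes as low as the 5 and the single markers were added after their values were seen. Alternatives were DESeq2 1.42.0 and its size factors, total counts, no filter, at least 5 CPM in 3 libraries, limma-voom (limma 3.58.1), a replicate block, a fit to the 6 libraries of a comparison, omission of mitochondrial and the 10 most abundant genes, and omission of each library.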

Additional observations from a re-analysis of the deposited data

How the results depend on the processing

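The order of the 5 genes by size was not stable, with Esyt3 (-3.76) lower than Tex46 (-3.22) in RS without the library labelled KO RS replicate 1. The KO minus WT values of the 5 genes kept their sign under every alternative run. As single libraries were left out they ranged in MII from -3.44 to -2.52 for Tex46, -2.38 to -1.75 for Esyt3, -2.11 to -1.57 for Plekho2, -1.75 to -1.40 for Nqo2 and -1.95 to -1.44 for Car2, with Esyt3 lowest without KO MII replicate 1. In RS they ranged from -3.51 to -2.94, -3.76 to -2.96, -3.28 to -2.86, -3.16 to -2.84 and -2.73 to -2.32.

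The stage difference of Nqo2 passed with total counts (-0.48, adjusted p = 0.0405), with the 5 CPM filter (-0.47, 0.0362), with DESeq2 (-0.44, 0.0456) and without WT MII replicate 2 (-0.54, 0.02), and reached -0.37 without WT MII replicate 3. That of Esyt3 ranged from -0.40 to 0.08 and changed sign without KO MII replicate 1. The cause was not tested.

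Calls over all genes were 784 in MII and 2863 in RS. In MII they were 1440 without a filter, 1519 with DESeq2, 403 with only the 6 libraries compared, and 147 (without KO MII replicate 2) to 976 as libraries were left out. In RS they were 1080 (without the library labelled KO RS replicate 1) to 3573 as libraries were left out, 3706 with DESeq2 and 3593 with only the 6 libraries compared. With total counts the RS calls were 1014 higher and 1953 lower, against 1290 and 1573. The 1 gene called for a difference of the KO effects became 65 without a filter, 0 with the 5 CPM filter and with limma-voom, 19 with DESeq2, and 0 to 2 as libraries were left out. Stage calls ran from 4789 to 6514 as libraries were left out and were 6671 with DESeq2. Counts halved, chosen after seeing the data, gave 918 and 3094 KO calls.

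The deviations of same-numbered libraries from their group means correlated above r = 0.1 in 4 of 18 pairs (range -0.203 to 0.287). Differently numbered libraries were not compared, so these values cannot decide whether the numbers pair them. With the replicate number as a block, 744, 2691 and 5859 genes were called in MII, in RS and between stages and 3 for the difference of effects, and of the KO minus WT values of the 5 genes that of Esyt3 in MII moved most, to -2.03.

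Genes with uncalled values near 0 changed sign with single libraries or settings. In MII, as libraries were left out, Slc26a8 ran from -0.12 to 0.22 (0.00 with total counts), Nqo1 from -0.71 to 0.51 (0.32 with limma-voom), Tex44 from -0.30 to 0.12, Akt1 from -0.65 to 0.08, Ripk1 from -0.22 to 0.04, Lactbl1 from -0.45 to 0.22 and Rasl12 from -0.25 to 0.18. In RS, Nqo1 ran from -0.65 to 0.10, Ripk1 from -0.42 to 0.00, Car13 from -0.32 to 0.11, Car8 from -0.40 to 0.10, 1110046J04Rik from -0.11 to 0.43 and A930001A20Rik from -1.17 to 0.49. Small counts limit Plekho2, Esyt3 and Tex46 in KO.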
